A study of Mus musculus with 10 samples.

Results

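The 9 genes followed here in hippocampal RNA belong to the complement system: the C1q chain genes C1qa, C1qb and C1qc, the components C3 and C4b, the receptor genes C3ar1, C5ar1 and Itgam, and the inhibitor gene Serping1. All 9 members were found by symbol among the 20156 gene rows of the unnormalized count table. Libraries came from 5 wild type (WT) and 5 TfamAKO mice, all 6 months of age, with 1 library per mouse. The series title points to mitochondria of astrocytes, and Tfam encodes a factor that packages and transcribes mitochondrial DNA. The labels give neither the driver of the deletion, nor the cells it reached, nor strain, litter or sex. Whole hippocampus was measured, so more or fewer cells of a type and more or less RNA per cell cannot be told apart.

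Complement is a cascade of plasma and tissue proteins that tags and clears microbes, debris and, in the developing or injured brain, synapses. C1q binds a target and activates the proteases C1r and C1s, which cleave C4 and C2 to form an enzyme that cleaves C3. Fragments of C3 coat the target and are bound by the integrin receptor that contains the Itgam chain, while C3a and C5a signal through C3ar1 and C5ar1. C1 inhibitor, the product of Serping1, blocks C1r and C1s. In brain, C1q is made mainly by microglia, and C4 and C3 can be made by glia.

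The 3 C1q genes lie next to each other on chromosome 4 in the RefSeq gene order of GRCm38.p6, in the order C1qb, C1qc, C1qa. Itgam has Itgax as its neighbour, and C5ar1 has C5ar2. Promoter sequence was available for 6 of the 9 members, from RefSeq (GRCm38.p6), and was not used here for C1qa, C4b and Serping1. Stretches of 4 genes are printed because they hold a match to a motif of a factor known in myeloid or inflammatory gene control. Each runs 5′ to 3′ on the gene's strand, with 35 bases on either side of the match, which is in capitals. None overlaps an exon of GENCODE M21.

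C1qb, chr4:136886212-136886288, minus strand: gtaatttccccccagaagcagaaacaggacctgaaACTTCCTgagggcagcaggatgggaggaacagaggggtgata
C1qc, chr4:136893068-136893144, minus strand: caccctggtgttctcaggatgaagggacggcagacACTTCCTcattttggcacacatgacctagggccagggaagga
C5ar1, chr7:16259369-16259445, minus strand: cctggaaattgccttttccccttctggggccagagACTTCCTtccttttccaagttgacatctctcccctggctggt
C3, chr17:57228139-57228216, minus strand: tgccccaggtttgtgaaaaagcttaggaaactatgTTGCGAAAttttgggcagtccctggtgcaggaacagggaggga

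In the first 3 stretches the capitals are the letters AGGAAGT read on the other strand, the core bound by PU.1 and other ETS factors. In C1qb the match starts 53 bases before the transcript start, in C1qc 195 bases and in C5ar1 72 bases, and C5ar1 holds another match 190 bases before. In C3 the capitals match TTGCNNAA, a C/EBP motif, 45 bases before the start. Both strands were searched over the 250 bases before each start, and matches of different motifs may overlap. AGGAAGT was present in 7.69% and TTGCNNAA in 9.56% of 32851 such windows. GAGGAA, another PU.1-type core, was found in C1qb, C1qc and Itgam and in 23.3% of all windows, and in C1qc it overlaps AGGAAGT. TTCNNNGAA (STAT, 7.02% of windows) and an IRF motif (2.98%) were found in 0 of the 6 members. These are matches of letters, chosen after the sequences were read, and show no binding.

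Total counts ran from 16584245 to 28675367 per library, so that 1 count equalled 0.0352 to 0.0615 CPM (counts scaled to a common effective library size). Tfam spanned 20.6 to 33.0 CPM in the WT group and 19.6 to 23.6 CPM in the TfamAKO group. Its log2 fold change was -0.40 ± 0.12 (SE), with an edgeR adjusted p of 0.0204. Leaving out WT 2, WT 4 or TfamAKO 3 ended that call, with edgeR adjusted p of 0.0580, 0.0504 and 0.0554. It was also not called without TfamAKO 4 and 5 (-0.43, edgeR adjusted p = 0.0524) or in the authors' normalized values (-0.28, limma adjusted p = 0.143). Some libraries stood apart from their group: WT 3, 4 and 5 held Ttr, a choroid plexus transcript, at 2511 to 5146 CPM against 14.3 to 122 CPM elsewhere. The Y-linked gene Kdm5d reached 22.7 CPM in TfamAKO 4 and 22.4 in TfamAKO 5, with at most 0.699 CPM in the other 8 libraries. Xist, the transcript of the inactive X chromosome, was at 0.141 CPM in TfamAKO 4 and 0 in TfamAKO 5, against 201 to 467 CPM in the other 8. By these transcripts TfamAKO 4 and 5 came from males and the other 8 libraries from females. Both males were thus TfamAKO, so that genotype and sex are in part confounded. Of 16180 genes tested, 20.8% were higher and 16.6% lower in TfamAKO at an adjusted p under 0.05.

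All 9 members were higher in TfamAKO (edgeR quasi-likelihood test, Benjamini-Hochberg adjustment over all tested genes), against the background of 20.8% higher and 37.4% changed in either direction, and 0 were lower. Their median log2 fold change was 1.32, and that of all tested genes was -0.02. For 7 of the 9, every TfamAKO library lay above every WT library, against 14.5% of all genes (23.9% when either direction is counted). C3 and Serping1 were the exceptions. The members were chosen with results of these data known, so these shares describe them and do not test them. Without TfamAKO 4 and 5, which leaves the 8 libraries with Kdm5d at or below 0.699 CPM, all 9 passed. Without WT 3, 4 and 5, 8 passed, in a fit where 2002 of 16722 tested genes were higher.

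**Figure D1:**
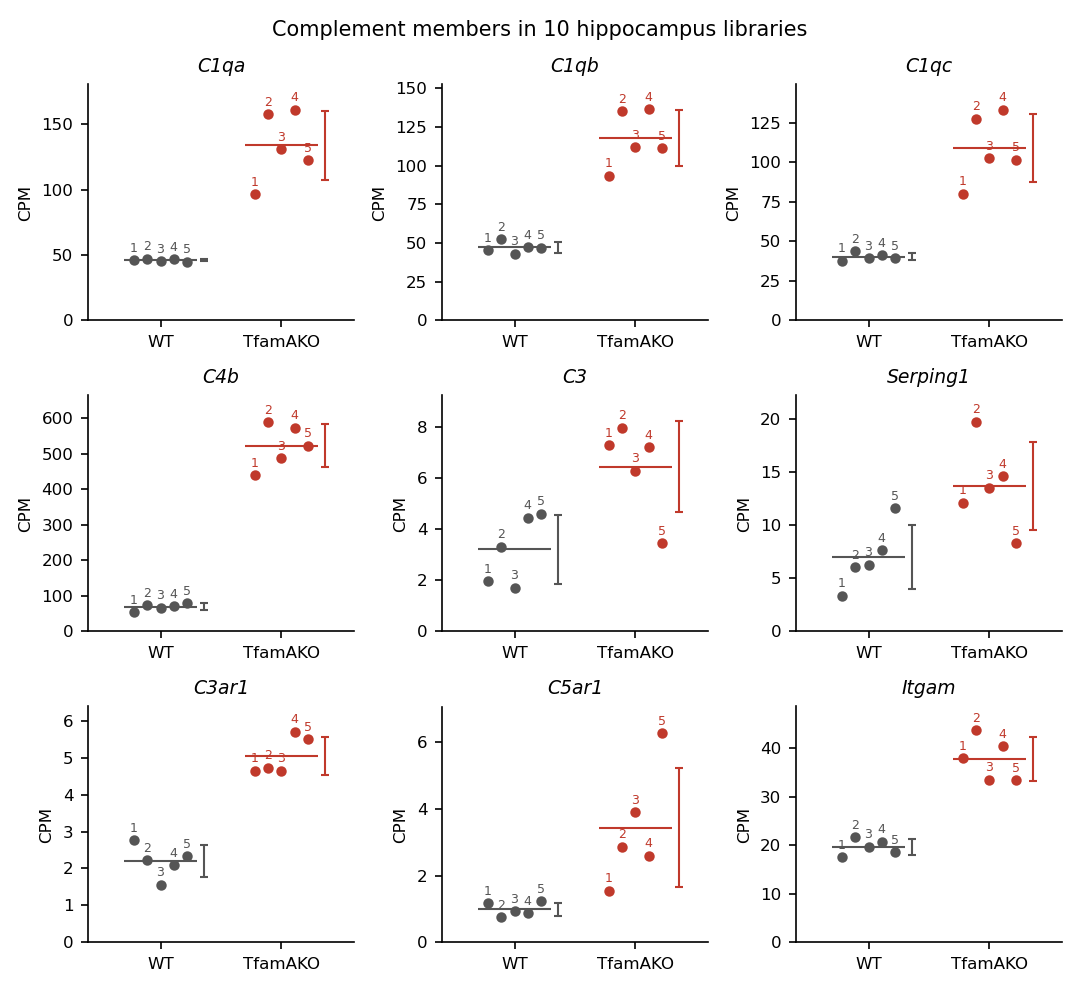
Level of each member in CPM (y axes start at 0 and differ in scale) in the 5 WT libraries (grey) and the 5 TfamAKO libraries (red). Points carry the replicate number, horizontal lines are means and bars are ± 1 SD; the groups overlap for C3 and Serping1, where TfamAKO 5 is the lowest of its group.

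The C1q chains make up the recognition molecule of the classical pathway, and their genes rose together. C1qa measured 46.2, 47.3, 45.5, 47.0 and 44.8 CPM across WT 1 to 5, and TfamAKO 1 to 5 gave 96.5, 158, 131, 161 and 123 CPM. C1qb measured 45.6, 52.7, 43.0, 47.5 and 47.1 CPM across WT 1 to 5, and TfamAKO 1 to 5 gave 93.7, 135, 112, 137 and 111 CPM. C1qc measured 37.8, 43.9, 39.2, 41.4 and 39.5 CPM across WT 1 to 5, and TfamAKO 1 to 5 gave 80.1, 127, 102, 133 and 101 CPM. For each chain TfamAKO 2 and 4 were the highest libraries and TfamAKO 1 the lowest of its group, still well above every WT library. The WT libraries lay close to each other, with an SD of 1.04 CPM for C1qa against 26.6 CPM in TfamAKO.

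Log2 fold changes, given with their SE, were 1.53 ± 0.12 for C1qa (edgeR adjusted p = 3.69e-06), 1.32 ± 0.10 for C1qb (3.35e-06) and 1.43 ± 0.12 for C1qc (6.31e-06). The chains assemble in equal numbers, and their counts kept close proportions. C1qa counts per C1qb count averaged 0.982 ± 0.0608 in WT and 1.13 ± 0.0636 in TfamAKO (SD, n = 5 each), and the ranges overlapped. C1qb per C1qc averaged 1.17 ± 0.0457 and 1.09 ± 0.0535. As a measure of likeness, Pearson's r of log2 CPM over the 10 libraries was taken against all genes with at least 1 CPM on average. C1qc was the gene most like C1qa (r = 0.998) and most like C1qb (0.997), and for C1qc the nearest were C1qa and C1qb. On deviations from the 2 group means, which remove the genotype difference, the pairs of C1q genes had r between 0.920 and 0.969. On that measure C1qc was still nearest to C1qa, but other genes came as close: Rps15a was first for C1qb (0.977) and for C1qc (0.977), and the 3 nearest to C1qc, with Maf1 and Pim3, held no C1q gene. The C1qb promoter stretch and the C1qc stretch printed above share the letters AGGAAGT at different distances from the start.

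C4b, the component that C1s cleaves, had the largest change of the 9. It measured 53.4, 74.3, 66.7, 71.3 and 79.8 CPM across WT 1 to 5, and TfamAKO 1 to 5 gave 440, 588, 488, 573 and 522 CPM. The lowest TfamAKO library was thus far above the highest WT library, and the group means differed 7.56-fold. The log2 fold change was 2.92 ± 0.12 (edgeR adjusted p = 1.81e-08). Over the alternative analyses it stayed between 2.75 and 3.05. The genes most like C4b over the 10 libraries were Usp53 (r = 0.998), Dhrs1 (0.997) and Vim (0.997), a measure that includes the genotype difference. On deviations from the group means they were Gpx1 (0.963), Osgin1 (0.955) and Myo1d (0.952).

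C4b has a near-identical copy, C4a, and reads that fit both could have been divided between them by the authors' estimate. C4a spanned 1.81 to 3.14 CPM among WT libraries and 2.0 to 5.92 CPM among TfamAKO libraries. Its log2 fold change was 0.65 ± 0.26, which did not pass (edgeR adjusted p = 0.0686). Its groups overlapped. For each C4a count there were 17.0 to 39.3 C4b counts in WT libraries and 88.2 to 220 in TfamAKO libraries. The C4a result depended on the table and the libraries. It passed without TfamAKO 1 (edgeR adjusted p = 0.0101), in DESeq2 (adjusted p = 0.0494) and in the deposited normalized values, where the log2 fold change was 1.10 (limma adjusted p = 0.0211).

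C3, the central component on which all activation routes converge, was low. It measured 1.97, 3.31, 1.72, 4.45 and 4.61 CPM across WT 1 to 5, and TfamAKO 1 to 5 gave 7.29, 7.98, 6.29, 7.22 and 3.45 CPM. TfamAKO 5 lay below WT 4 and WT 5, and the other 4 TfamAKO libraries lay above all WT libraries. The log2 fold change was 0.98 ± 0.30 (edgeR adjusted p = 0.0226). The call was lost without TfamAKO 2 (log2 fold change 0.90, edgeR adjusted p = 0.0570) or TfamAKO 4 (0.94, 0.0502). With the choroid plexus score as a covariate the difference was larger with a wider error, 1.21 ± 0.44, and was not called (edgeR adjusted p = 0.0663). Of the 3 libraries rich in Ttr, WT 3 had the lowest C3 of the WT group and WT 4 and WT 5 the highest, and WT 1, with little Ttr, was close to WT 3. The genes most like C3 by log2 CPM were Dnase1l1 (r = 0.968), Pla2g4a (0.968) and Unc45b (0.956), and on deviations from the group means Asb4 (0.966) came first.

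The C3 difference was also smaller in the authors' normalized values. There C3 measured 78.3, 109, 83.7, 97.1 and 74.8 across WT 1 to 5, and TfamAKO 1 to 5 gave 118, 128, 139, 116 and 55.7. TfamAKO 5 was then below every WT library and the other 4 TfamAKO libraries above every WT library. On the scale of log2 (normalized value + 1), the difference was 0.27 ± 0.23 (SE), with a limma adjusted p of 0.398. The normalized value per count, divided by the median of that ratio over all tested genes in the library, ran from 0.716 to 2.15 for C3. It was 1.80, 1.46 and 2.15 in WT 1, 2 and 3, and 0.958 in WT 4 and 0.988 in TfamAKO 3. In WT 5 and TfamAKO 1, 2, 4 and 5 it lay between 0.716 and 0.720. For the C1q genes, C3ar1, Serping1 and Itgam this quantity stayed between 0.962 and 1.06. For C4b it ran from 0.912 to 1.20 and for C5ar1 from 0.912 to 1.29. For C4a it was 0.625, 1.38, 0.603, 0.830 and 0.894 in WT 1 to 5 and 1.10 to 1.43 in TfamAKO libraries. The gene-specific part of the authors' normalization was not described in the labels, and its part in the C3 and C4a results was not tested. The 8 members other than C3 passed in the normalized values.

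**Figure D2:**
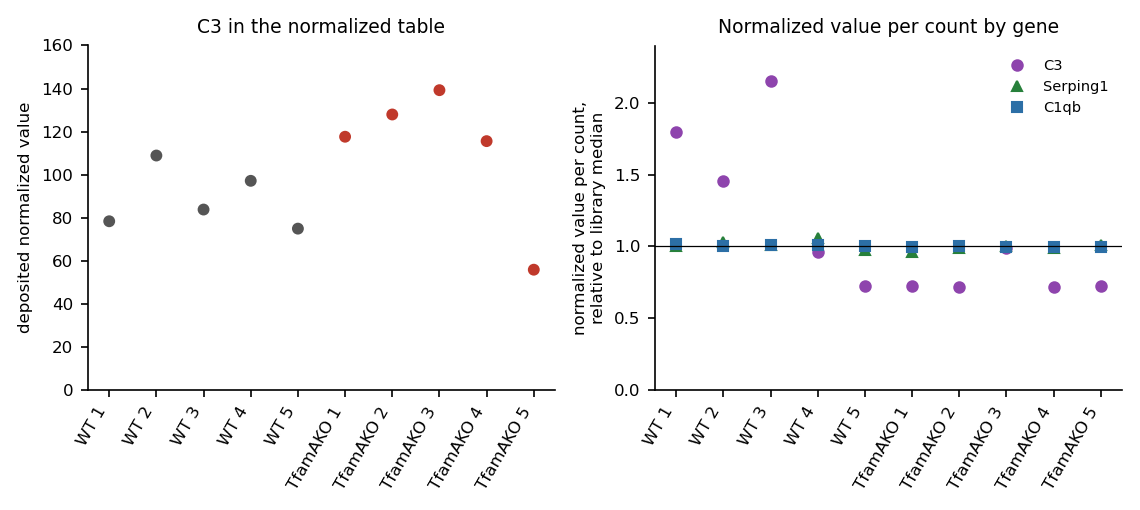
Left, the authors' normalized value of C3 in each library (WT grey, TfamAKO red; y axis from 0). Right, the normalized value per count relative to the library's median over all tested genes for C3, Serping1 and C1qb; C3 lies at 1.46 to 2.15 in WT 1, 2 and 3 and at 0.716 to 0.720 in 5 other libraries, while C1qb stays near 1.

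Serping1 encodes the inhibitor of C1r and C1s. It measured 3.38, 6.04, 6.29, 7.65 and 11.6 CPM across WT 1 to 5, and TfamAKO 1 to 5 gave 12.1, 19.8, 13.5, 14.6 and 8.35 CPM. WT 5 lay above TfamAKO 5, so the groups overlapped, and the within-group spread was wide. The log2 fold change was 0.95 ± 0.29 (edgeR adjusted p = 0.0214), and it lost its call without TfamAKO 2 (0.79, edgeR adjusted p = 0.0605). Without WT 3, 4 and 5 together it was 1.54, which is 1.61 times the value with all libraries.

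Serping1 followed other genes than C1q did. Among the nearest genes by log2 CPM over the 10 libraries were Nid1 (r = 0.975) and Cd248 (0.970), and on deviations from the group means they were Cyp1b1 (0.991), Colec12 (0.977) and Col1a2 (0.973). With C3 its deviations had r = 0.785. The summed level of 10 pericyte and fibroblast markers, led by Rgs5, Dcn and Pdgfrb, was 189 to 277 CPM in WT and 223 to 354 CPM in TfamAKO. It was lowest in WT 1 and highest of the WT group in WT 5, and in TfamAKO it was highest in TfamAKO 2 and lowest in TfamAKO 5, as Serping1 was. On deviations from the group means, the mean log2 level of this list and Serping1 had r = 0.931. The border macrophage list had r = 0.926 with Serping1 on deviations and, on log2 CPM, 0.961 against 0.896 for the pericyte and fibroblast list. In the latter list 2 of 10 tested genes rose (Rgs5 and Pdgfrb), near the 20.8% of all genes, and 0 fell. Dcn had a log2 fold change of -0.01. The part of either list in the Serping1 result was not tested.

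The receptor genes rose from low or moderate levels. C3ar1, the receptor of C3a, measured 2.77, 2.22, 1.56, 2.09 and 2.34 CPM across WT 1 to 5, and TfamAKO 1 to 5 gave 4.64, 4.73, 4.64, 5.70 and 5.50 CPM. No library overlapped, and the log2 fold change was 1.20 ± 0.16 (edgeR adjusted p = 0.000200). C5ar1, the receptor of C5a, measured 1.17, 0.755, 0.936, 0.867 and 1.23 CPM across WT 1 to 5, and TfamAKO 1 to 5 gave 1.55, 2.87, 3.90, 2.61 and 6.27 CPM. Its log2 fold change was 1.80 ± 0.34 (edgeR adjusted p = 0.00168), the second largest of the 9. It rested on 18 to 32 counts in each WT library and 31 to 178 in TfamAKO. By likeness of log2 CPM, Eif3a (r = 0.991) led for C3ar1 and Mdc1 (0.980) for C5ar1. On deviations from the group means Gm3636 (0.918) and Pus1 (0.978) led.

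C5ar1 was highest in TfamAKO 5, the library in which C3 and Serping1 were lowest of their group, and lowest in TfamAKO 1. It lost its call without WT 3, 4 and 5 (log2 fold change 1.89, edgeR adjusted p = 0.0513). Without WT 3, 4 and 5 and TfamAKO 4 and 5 together, C5ar1 (1.54, edgeR adjusted p = 0.0820) and C3ar1 (0.90, 0.0509) were not called, and the other 7 members were. Itgam encodes the alpha chain of complement receptor type 3 (CD11b), which binds C3 fragments on targets. It measured 17.6, 21.7, 19.8, 20.8 and 18.7 CPM across WT 1 to 5, and TfamAKO 1 to 5 gave 38.1, 43.7, 33.6, 40.5 and 33.4 CPM, with no overlap. Its log2 fold change of 0.94 ± 0.09 was close to that of C3 and Serping1, but with a much smaller error (edgeR adjusted p = 1.92e-05). The genes most like Itgam by log2 CPM were Pik3ap1 (r = 0.990), Jak3 (0.988) and Rgs20 (0.987), and on deviations from the group means Adi1 (0.911) came first.

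Levels between genes were compared as CPM per kilobase of the longest protein-coding transcript. In WT the order was C1qa at 44.4 ± 0.998, C1qb at 43.4 ± 3.24, C1qc at 33.5 ± 1.96 and C4b at 12.8 ± 1.85 (SD, n = 5). Itgam at 4.21 ± 0.344 and Serping1 at 3.95 ± 1.70 followed. C3 at 0.625 ± 0.263, C3ar1 at 0.510 ± 0.101 and C5ar1 at 0.390 ± 0.0792 CPM per kilobase came last. C1qa and C1qb, Itgam and Serping1, and the last 3 did not differ from their neighbours beyond their spread. In TfamAKO, C4b at 97.1 ± 11.3 CPM per kilobase lay within the spread of C1qb (108 ± 16.6) and C1qc (90.5 ± 17.9), whereas in WT it had been below each of them.

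C1q, Itgam and C3ar1 are known as microglial genes in brain, and markers of microglia were also higher in TfamAKO. Of 15 homeostatic microglia markers 7 (46.7%, against 20.8% of all genes) rose and 0 fell, all 15 being tested, with a median log2 fold change of 0.41. Their summed level was 921 to 1016 CPM in WT and 1111 to 1278 CPM in TfamAKO. On deviations from the group means, the mean log2 level of these 15 markers had r = 0.765 with Itgam and -0.481 with C3ar1. With C1qa, C1qb and C1qc that r was -0.0714, 0.0532 and 0.0922. Csf1r, the receptor gene on which microglial survival depends, rose by 0.90 ± 0.10 on the log2 scale. Rhob, the most abundant gene of the microglia list at 466 CPM in WT and 489 in TfamAKO, did not pass (edgeR adjusted p = 0.397). It makes up a large part of the summed level, whereas a mean log level weighs each marker alike. The members were therefore also compared relative to the mean log level of these 15 genes in each library, in a fit over all genes. On that scale the median log2 fold change of all genes was -0.31, 9.83% of genes were higher and 47.2% lower.

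Relative to the microglia markers 7 of 9 members were higher in TfamAKO and 0 were lower. Log2 fold changes were 1.24 ± 0.13 for C1qa, 1.02 ± 0.11 for C1qb, 1.14 ± 0.12 for C1qc and 2.62 ± 0.12 for C4b. They were 0.90 ± 0.20 for C3ar1, 1.51 ± 0.35 for C5ar1 and 0.65 ± 0.09 for Itgam. C3 (0.68 ± 0.29, edgeR adjusted p = 0.0542) and Serping1 (0.65 ± 0.28, adjusted p = 0.0550) did not pass. Both did pass without WT 5 (edgeR adjusted p = 0.0242 for C3 and 0.00608 for Serping1) or TfamAKO 5 (0.0131 and 0.0196), and C3 also passed without WT 4 (0.0411). With only 4 of the markers, the count was again 7, but the values were lower. Itgam moved from 0.65 to 0.40 and C1qb from 1.02 to 0.78, and C3 (0.44) and Serping1 (0.41) again did not pass. Without WT 3, 4 and 5, C3ar1 (0.71, edgeR adjusted p = 0.0525) did not pass on the scale of all 15 markers, whereas C3 (0.97, 0.0372) and Serping1 (1.23, 0.0111) did. The log2 fold changes of the single markers ran from -0.27 to 0.94, so the ratio depends on which markers are averaged. Itgam, at 0.94 per effective library size, did not exceed the highest of them. This ratio compares transcripts and is not a count of cells.

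**Figure D3:**
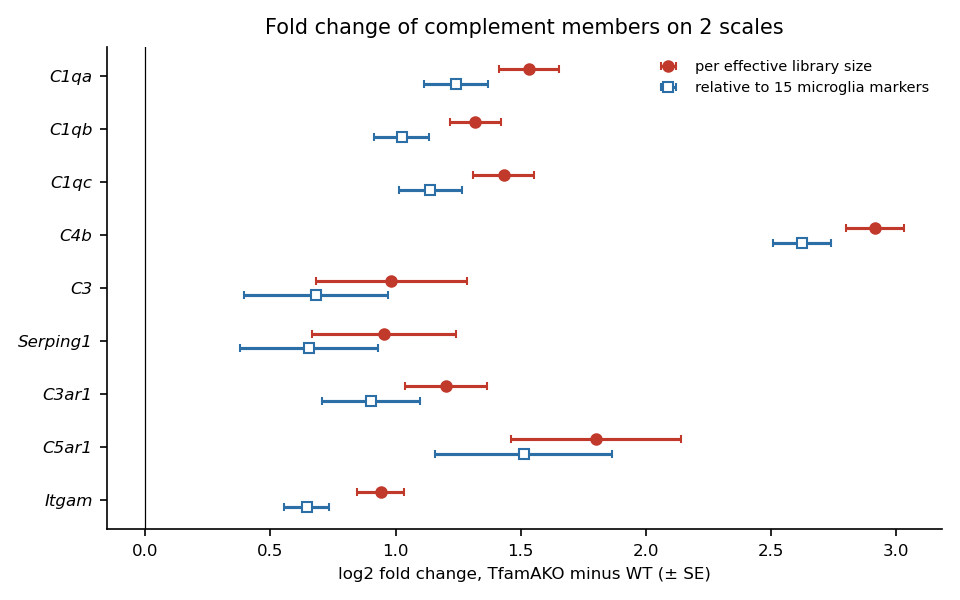
Log2 fold change (TfamAKO minus WT, x axis) of each member with its SE, per effective library size (filled circles) and relative to the mean log level of 15 microglia markers (open squares). Each square lies about 0.3 to the left of its circle, and the points stay right of 0.

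Other cells that carry complement genes were followed by their markers. Of the border macrophage list, 3 of 7 tested genes rose, Stab1 and Mrc1 among them, and 0 fell. The summed level of its 10 genes was 18.4 to 32.0 CPM in WT and 35.7 to 50.7 CPM in TfamAKO. Both tested monocyte markers, Vcan and Ly6c2, rose, and the list summed to 14.1 to 20.2 CPM in WT and 20.7 to 28.0 CPM in TfamAKO, nearly all of it Vcan, which other cells also express. Ccr2, a defining monocyte receptor, averaged 0.230 CPM in WT and 0.232 CPM in TfamAKO. Of the neutrophil list 1 gene, Cxcr2, was tested and did not pass, and S100a8 averaged 0.0587 CPM in WT and 0.0823 CPM in TfamAKO. The summed level of that list was 0.384 to 0.832 CPM and 0.399 to 1.13 CPM. Of the lymphocyte list 0 genes were abundant enough to test, and it summed to 0.492 to 0.921 CPM and 0.525 to 1.55 CPM. Astrocyte markers moved in both directions, 5 of 12 up (Gfap among them) and 4 down (Slc1a2 and Aldoc among them). Endothelial markers rose in 6 of 8 genes, Cldn5 and Slco1a4 among them. Oligodendrocyte markers rose in 2 of 8 (25%), near the 20.8% of all tested genes that were higher. Neuronal markers fell in 5 of 8 (Snap25 and Syt1 among them) and choroid plexus markers in 12 of 12, against 16.6% of all genes. The choroid plexus list summed to 2879 to 5807 CPM in WT 3, 4 and 5. It summed to 58.3 and 174 CPM in WT 1 and 2, and to 47.2 to 145 CPM in TfamAKO, so its fall rested on WT 3, 4 and 5. The part of these cell types in the complement values was not tested.

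The rest of the pathway was read from 4 lists with 56 genes, of which 17 were not analysed here and 31 of the other 39 were abundant enough to test. Of these 31, 10 were higher and 4 lower in TfamAKO, with a median log2 fold change of 0.12. Higher genes were thus 32.3% of those tested and lower genes 12.9%, against 20.8% and 16.6% of all genes.

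Among genes of initiation and the convertases 5 of 10 tested genes rose and 0 fell, against 20.8% and 16.6% of all genes. The C1 protease genes went up with the C1q chains. C1ra spanned 1.64 to 3.86 CPM among WT and 4.74 to 10.5 CPM among TfamAKO libraries, a log2 fold change of 1.31 ± 0.28 (edgeR adjusted p = 0.00336). C1s1 spanned 1.17 to 1.81 and 2.20 to 5.43 CPM (1.16 ± 0.27, edgeR adjusted p = 0.00536), and C1rl, a C1r-like protease gene, rose by 0.99 ± 0.24. No library of the groups overlapped for these 3 genes. Among the 10 tested genes of this list that held for 4, against 23.9% of all genes (14.5% with TfamAKO above WT). Both C1ra and C1s1 were highest in TfamAKO 5, where C5ar1 was also highest. Serping1, which encodes their inhibitor, was there the lowest of the TfamAKO group, though above WT 1 to 4.

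Masp1, a protease of the lectin pathway, rose by 0.61 ± 0.11 (edgeR adjusted p = 0.00125), without overlap, and was not called without WT 3, 4 and 5 (0.45, edgeR adjusted p = 0.0563). Colec11, a lectin of that pathway, rose by 0.75 ± 0.24 (edgeR adjusted p = 0.0270). Its call was lost without any one of WT 2, 3, 4 or 5 or TfamAKO 2, 3 or 4, with log2 fold changes from 0.68 to 0.75 and edgeR adjusted p from 0.0508 to 0.0726. C2, the partner of C4 in the convertase, averaged 1.38 ± 0.609 CPM in WT and 2.11 ± 0.716 CPM in TfamAKO and did not pass (edgeR adjusted p = 0.197). Cfp, which encodes properdin of the alternative pathway, averaged 4.45 ± 1.03 and 3.05 ± 1.03 CPM (edgeR adjusted p = 0.108), and the lectin gene Colec12 had a log2 fold change of 0.29 ± 0.25. For Colec12 that value ran from 0.12 without TfamAKO 2 to 0.50 without WT 5. Without TfamAKO 5, Cfp was called lower, at -0.70 on the log2 scale (edgeR adjusted p = 0.0394).

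Of the terminal pathway, whose proteins form the membrane pore, 1 gene was tested. C8g, a C8 subunit of the lipocalin family, spanned 0.671 to 0.998 CPM among WT and 0.899 to 2.25 CPM among TfamAKO libraries. It rose by 0.89 ± 0.28 on the log2 scale (edgeR adjusted p = 0.0262). It was not called without any one of WT 1, 2 or 3 or TfamAKO 2, 3 or 4, with log2 fold changes from 0.70 to 0.89 and edgeR adjusted p from 0.0503 to 0.0759. Hc, chosen after its values were seen because it encodes C5, the source of the C5ar1 ligand, was too low to test, at 0.385 ± 0.0919 CPM in WT and 0.394 ± 0.174 CPM in TfamAKO.

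Of the regulators 1 of 16 tested genes was higher (6.25%) and 4 were lower (25%), against 20.8% and 16.6% of all genes. The inhibitor gene Serping1, which rose, is counted with the members, and no difference between lists was tested. Cd55, which encodes a membrane factor that speeds the decay of convertases, fell by 1.0 on the log2 scale (SE 0.28, edgeR adjusted p = 0.0158). Its levels spanned 3.73 to 8.63 CPM in WT libraries and 1.76 to 4.89 CPM in TfamAKO libraries, so the groups overlapped. The Cd55 call was lost without WT 3, 4 and 5 (log2 fold change -0.40, edgeR adjusted p = 0.459) and without TfamAKO 4 and 5 (-0.83, 0.0598). In WT 1 and 2, with little Ttr, Cd55 was at 5.10 and 3.73 CPM, and in WT 3, 4 and 5 at 7.54, 8.63 and 7.87 CPM.

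The other regulators that fell encode neuronal proteins with CUB and sushi domains. Sez6l2 averaged 540 ± 30.3 CPM over WT and 367 ± 32.4 CPM over TfamAKO libraries (SD, n = 5 each) without overlap. Its log2 fold change was -0.56 ± 0.07, edgeR adjusted p = 8.94e-05. Csmd3 (-0.58 ± 0.15, edgeR adjusted p = 0.0109) also separated the groups, and was about as large but not called without TfamAKO 4 and 5 (-0.54, edgeR adjusted p = 0.0519). Sez6 fell by 0.30 (SE 0.10, edgeR adjusted p = 0.0312). Its call was lost without any one of WT 1 or 5 or TfamAKO 2, 3, 4 or 5, with log2 fold changes from -0.29 to -0.23 and edgeR adjusted p from 0.0545 to 0.0763. Their relative Sez6l had a log2 fold change of -0.06 ± 0.10 and did not pass, and neuronal markers fell beside them, as given above. The most abundant regulator gene, Clu (clusterin), averaged 1087 ± 130 CPM in WT and 934 ± 158 CPM in TfamAKO (edgeR adjusted p = 0.181). Vtn (vitronectin) had a log2 fold change of 0.03 ± 0.14 and Susd4 of -0.08 ± 0.08, and neither passed.

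Among the other receptors 3 of 4 tested genes rose and 0 fell, against 20.8% and 16.6% of all genes. Itgax, the neighbour of Itgam, encodes the alpha chain CD11c of complement receptor type 4. It measured 0.184, 0.210, 0.312, 0.434 and 0.384 CPM across WT 1 to 5, and TfamAKO 1 to 5 gave 3.0, 8.64, 7.69, 4.51 and 5.14 CPM. The groups were far apart, with a log2 fold change of 4.19 ± 0.35 (edgeR adjusted p = 6.14e-06). In WT, Itgam was thus the more abundant of the pair by far, at 4.21 against 0.0753 CPM per kilobase, and in TfamAKO they were at 8.08 and 1.43 CPM per kilobase. Itgb2, the beta chain with which both pair, rose by 0.92 ± 0.13 (edgeR adjusted p = 0.000220), close to Itgam. Cd93, first described as a C1q receptor and expressed by endothelium and myeloid cells, rose by 1.33 ± 0.20 (edgeR adjusted p = 0.000404). C5ar2, the neighbour of C5ar1 and the other C5a receptor, averaged 0.939 ± 0.426 CPM in WT and 1.41 ± 0.582 CPM in TfamAKO and did not pass (log2 fold change 0.58, 95% interval -0.17 to 1.34, edgeR adjusted p = 0.206). For C5ar2 that value ran from 0.31 without TfamAKO 5 to 0.92 without WT 2.

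**Figure D4:**
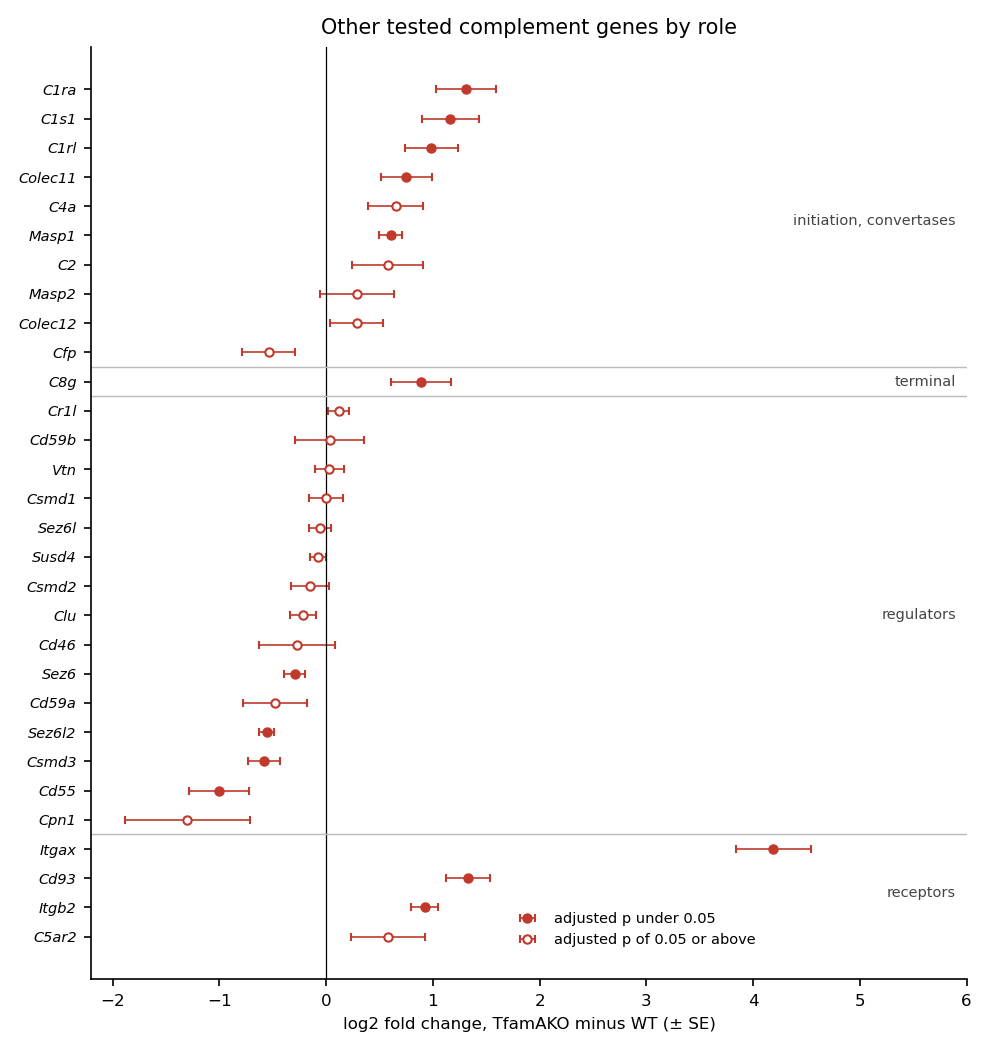
Log2 fold change (TfamAKO minus WT, x axis) with SE of 30 of the 31 other complement genes tested, grouped by role and sorted within each group. Filled points have an edgeR adjusted p under 0.05; initiation genes and receptors hold filled points on the right of 0, and the regulators shown hold 4 on the left.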

How the data were processed

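Hippocampal total RNA was extracted with a commercial kit and made into stranded mRNA libraries, per the labels' protocols. The authors deposited unnormalized estimated counts and a table of normalized values, treated as a signal, with a derivation not given in the sources used here. Salmon and DESeq2 1.26.0 are named in the submitters' processing notes. The deposited counts were already whole numbers. Of the reads' reference, genome build and gene models were not given in the sources used here.

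Counts were tested with edgeR 4.0.16 in R 4.3.3. Of 20156 rows, filterByExpr (minimum count 10) kept 16180. With TMM scaling, a quasi-likelihood F test (two-sided, genotype as its single term) was run, and p-values were adjusted by Benjamini-Hochberg over all tested genes with a threshold of 0.05. Dividing the size of a log2 fold change by the root of F gave its SE. Levels are CPM, as mean ± SD over 5 mice, and log2 CPM has a prior count of 2. For the comparison with microglia, the mean log CPM of 15 markers was added to the library offset. Transcript lengths came from GENCODE M21. Alternatives used limma 3.58.1 and DESeq2 1.42.0. The steps were tested on simulated counts.

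The members and lists were chosen with earlier results of these data known. The named genes are the 9 members, each other complement gene past the threshold, up to 4 per list that did not pass, the 3 most abundant markers of each cell type list, Tfam, and the 3 genes most like a member. Alternatives covered scaling, low-count filters, other tests, a replicate block, libraries left out, a choroid plexus covariate and fewer microglia markers. Of the listed genes, 1 regulator and 1 microglia marker are not reported here by name.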

Additional observations from a re-analysis of the deposited data

Results flagged for a closer look

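In 2 cases a value stood apart from the other 4 libraries of their group by a gap large against the group's range. Sez6 was at 241 CPM in TfamAKO 1 against 193 CPM in the next highest TfamAKO library. C5ar2 was at 1.68 CPM in WT 2 against 0.884 CPM in the next highest WT library. The rule was applied to 40 genes in 2 groups each, 80 groups in all, and chance flags about 1 in 20. Of the 9 members 0 were among them.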

How the results depend on the processing

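The count of members higher in TfamAKO was 9, and over 24 alternatives it ran from 7 to 9, with 0 lower in each. C1qa, C1qb, C1qc, C4b and Itgam passed in all 24, and C3 in 18. Relative to the microglia markers the count of 7 ran from 7 to 9 over 20 alternatives. Counts over wider sets moved more with the libraries used. Without WT 3, 4 and 5, 2002 genes were higher and 750 lower against 3369 and 2679, and 2 other complement genes were lower against 4. Without TfamAKO 4 and 5, 1 other complement gene was lower. With the choroid plexus score as covariate 1674 genes were lower. Without both sets of libraries, an alternative chosen after the data were seen, 5 other complement genes were higher against 10 and 2 lower, and 1267 and 584 of all genes. Fewer libraries were tested there, and the causes were not tested further. Vtn, which did not pass, had log2 fold changes of -0.0034 with upper-quartile scaling and -0.00051 in limma-voom, and from -0.057 to 0.14 with each library left out. Sez6l ran from -0.14 to 0.011 with each library left out. The replicate numbers share no stated animal or litter, and deviations of same-numbered libraries had r from -0.135 to 0.0858, so they were not taken as pairs. With the replicate block 9 members were higher and 0 lower, 8 relative to the microglia markers, where Serping1 passed (0.72, edgeR adjusted p = 0.0447), and Colec11 and C8g were not called. For C5ar1, Hc and C8g the low counts limit the precision.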
